A study of Mus musculus with 15 samples.

Results

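The 170 CDR3 peptides described here were chosen by the read lists themselves: each was listed in all 5 Naive and all 5 memory-phenotype (MP) libraries of mouse CD8+ T cells. They are 0.184% of the 92219 distinct CDR3s of the series. All 15 libraries hold T cell receptor (TCR) alpha chains of male mice on a C57BL/6 background whose genotype is TCRbtg, a fixed transgenic TCR beta chain, which leaves the alpha chain as the part that varies from cell to cell. The sort gate was CD8b+ CD4neg CD44lo CD122neg for Naive and CD8b+ CD4neg CD44hi CD122+ for MP cells, both from spleen pooled with lymph nodes at an age of 9 weeks, with 5 libraries of each subset. The series' design names 5 mice for these subsets, and the labels do not say which Naive and MP libraries share a mouse. Another 5 libraries hold CD8b+ CD4neg T cells, with no CD44 or CD122 gate, of prostate tumours from TCRbtg TRAMP+/- males aged 27 weeks. TRAMP mice carry an oncogenic transgene under the probasin promoter, which is active in prostate epithelium. Tissue, age, genotype and gate therefore differ together between Tumour and the other groups and cannot be told apart. The transgenic beta chain limits the model to receptors that pair with 1 beta chain.

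In a TCR alpha chain, CDR3 is the loop made where a variable segment meets a joining segment (TRAJ). Bases trimmed from or added at that junction make it the most diverse part of the chain, and it usually lies over the bound peptide. The last residues of the loop come from the joining segment, so loops that share an end usually share a TRAJ segment. Naive CD8+ T cells have left the thymus and have not been activated. Memory-phenotype cells carry the markers of memory cells and also arise in mice without deliberate immunisation. A CDR3 found in many animals is called public. One CDR3 peptide can be encoded by several nucleotide sequences and can sit on chains of several variable segments, which the lists do not separate, so that a peptide listed in both subsets need not be 1 shared alpha chain.

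The loops are written as deposited, without the conserved residues at either end. The 10 most abundant ones in MP cells come first, because together they carry 55.6% of the MP reads of the set. The loop at rank 2 is described and not shown. Those shown are labelled with their rank by mean MP share among the 170 and with the TRAJ segment that their end matches.

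MP rank 1, TRAJ34: ALGSSNTNKVV

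MP rank 3, TRAJ34: ALASSNTNKVV

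MP rank 4, TRAJ23: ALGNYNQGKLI

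MP rank 5, TRAJ23: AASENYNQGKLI

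MP rank 6, TRAJ21: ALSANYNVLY

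MP rank 7, TRAJ23: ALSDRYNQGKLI

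MP rank 8, TRAJ40: AASNTGNYKYV

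MP rank 9, TRAJ26: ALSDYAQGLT

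MP rank 10, TRAJ24: AASRTTASLGKLQ

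The loop at MP rank 2 has 12 residues, a TRAJ52 end and aspartate at position 3. Positions are counted from 1 at the first residue listed. The next loops are those with the highest mean Naive share, shown because they end in many of the same segments but mostly lie on the other side of the balance. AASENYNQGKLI stands in both lists.

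Naive, TRAJ23: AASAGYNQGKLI

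Naive, TRAJ30: AVDTNAYKVI

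Naive, TRAJ26: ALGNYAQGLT

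Naive, TRAJ23, also among the balanced loops: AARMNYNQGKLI

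Naive, TRAJ34: ALSSSNTNKVV

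Naive, TRAJ31: AVSADSNNRIF

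Naive, TRAJ34: AISSNTNKVV

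Naive, TRAJ15: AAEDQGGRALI

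Naive, TRAJ34: ALSDSNTNKVV

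Naive libraries held between 547665 and 702663 reads, MP libraries between 574484 and 881988 and Tumour libraries between 627205 and 943699. A library listed a CDR3 from 2 reads upward, which is 0.000227 to 0.000365% of a Naive or MP library. MP 1 and MP 5 stood apart with 12401 and 13950 distinct CDR3s, against 2216 to 3392 in MP 2, MP 3 and MP 4. Naive libraries listed 14914 to 29559 and Tumour libraries 934 to 2657. Without MP 1 and MP 5 the rule would have chosen 179 CDR3s. Reads count RNA, so more cells with a chain and more RNA per cell cannot be told apart, and the number of sorted cells is not in the labels. The memory and naive gates cannot be checked in lists of CDR3s.

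The rule set its own edge. Of the 170, 27 had only 2 reads in some library, 93 had at least 10 reads in all 10 libraries and 34 had at least 100. Just outside it were 215 CDR3s listed in 9 of the 10 libraries. Of these, 166 were absent from the list of 1 MP library, most often MP 3 with 78, and 49 from that of 1 Naive library, most often Naive 2 with 24. MP 3 and Naive 2 are the libraries with the fewest distinct CDR3s of their subsets. The 27 just inside had a median mean share of 0.00243% in Naive and 0.0191% in MP, and the 215 just outside 0.00484% and 0.0161%.

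The shared loops were a small part of Naive reads and a large part of MP reads. Summed over the 170, their share was 9.10, 8.82, 9.44, 9.16 and 9.96% in Naive libraries 1 to 5 and 41.25, 39.98, 43.5, 41.89 and 40.94% in MP libraries 1 to 5. The subsets did not overlap, and libraries of a subset lay close together, including MP 1 and MP 5 with their long lists. The means were 9.30 ± 0.432% in Naive and 41.5 ± 1.31% in MP (SD, n = 5 each). Since membership asks for a listing in every library, these sums describe the chosen set and were not tested. Of the 10, 50 and 100 most abundant CDR3s of MP, 8, 30 and 51 belonged to the set, against 1, 10 and 17 of the corresponding CDR3s of Naive. The 10 largest members took 55.6% of the set's MP reads and 52.1% of its Naive reads.

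**Figure D1:**
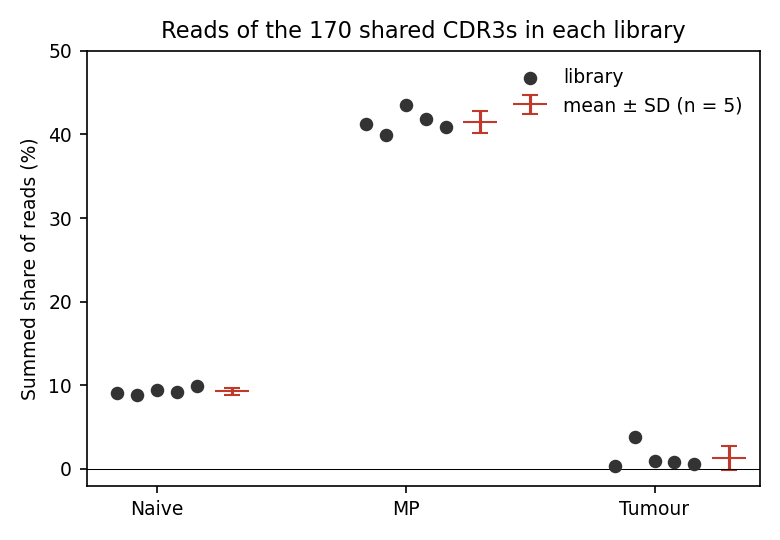
Summed share of reads (vertical axis, percent) of the 170 CDR3s in each of 15 libraries; points are libraries and red bars the mean ± SD of 5. Naive libraries lie between 8.82 and 9.96%, MP libraries between 39.98 and 43.5% and Tumour libraries between 0.408 and 3.80%.

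Abundance in one subset said little about abundance in the other. Across the 170 loops, Spearman's rho of the mean shares in Naive and MP was 0.251. Between the counts of a single Naive and a single MP library it was 0.125 to 0.283. It was 0.882 to 0.938 between the counts of pairs of Naive libraries and 0.723 to 0.926 between those of pairs of MP libraries. These correlations run across loops of shared libraries and are given as a description only. The median loop took 0.0117% of Naive and 0.0523% of MP reads. The median coefficient of variation between libraries was 0.355 in Naive and 0.525 in MP, and 5 loops in Naive and 25 in MP varied by more than their mean. Of the 170, 130 had a higher mean share in MP and 40 a lower one. The mean share was at least 10 times higher in MP for 58 loops and at least 10 times higher in Naive for 9. It lay within 2-fold for 30, and 9 loops were at least 100 times higher in MP. The log2 ratio of mean MP to mean Naive share ran from -5.77 to 10.02, with a median of 2.13.

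The same spread was seen in the tests. With edgeR's quasi-likelihood test at a Benjamini-Hochberg adjusted p under 0.05, 88 of the 169 members tested were higher in MP (52.1%) and 17 were lower (10.1%). Over all 5954 CDR3s tested, 12.6% were higher and 48.1% lower in MP. The rule used these same reads, so nothing is read from the difference of these percentages. The median log2 fold change was 2.12 over the members and -3.35 over all CDR3s tested. In 76 members every MP share lay above every Naive share, in 22 every MP share lay below, and in 72 the subsets overlapped. The background for such separation was 5.39% above and 39.9% below over the CDR3s tested. With a block for replicate number in the edgeR fit, 40 members were called higher and 7 lower. Over all CDR3s tested that fit called 613 higher and 3047 lower. Whether equal numbers mark the same mouse is not in the labels.

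The 88 loops called higher summed to 38.0 ± 1.30% in MP and 1.99 ± 0.136% in Naive. The 17 called lower took 3.85 ± 0.199% of Naive and 0.364 ± 0.0887% of MP reads. Between these lay 64 loops without a call, which took 3.46 ± 0.151% of Naive and 3.20 ± 0.243% of MP reads (SD, n = 5 throughout). The direction of the first 2 pairs of sums follows from the calls. A loop without a call need not be equal in both. The call depends on the spread between libraries, which was larger in MP. The loops named below were picked by their shares or ratios in these libraries, so that their folds and p-values describe them and are not independent evidence.

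**Figure D2:**
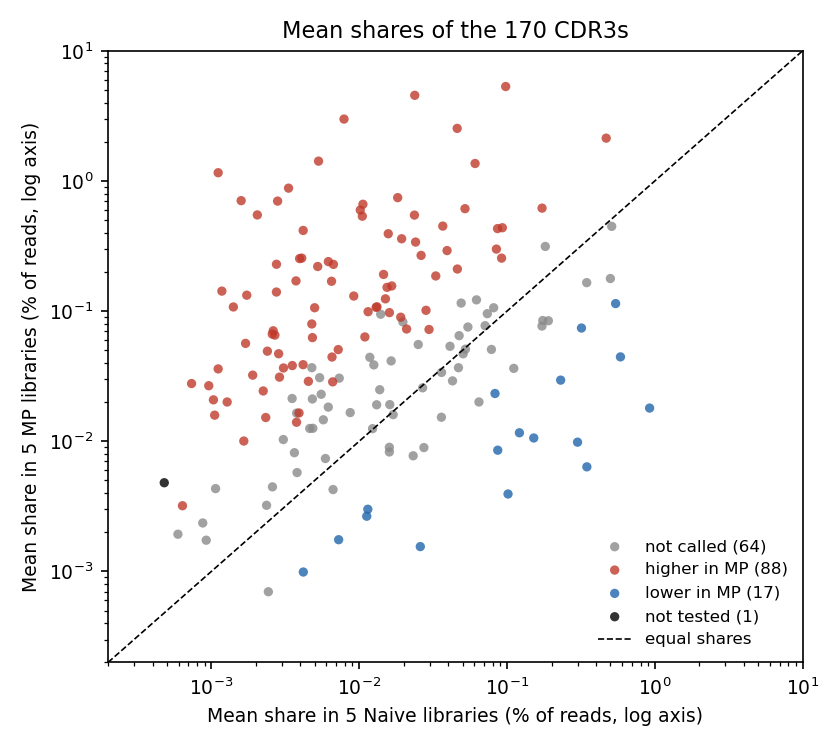
Mean share of reads of each of the 170 CDR3s in the 5 Naive libraries (horizontal, percent, log axis) against the mean share in the 5 MP libraries (vertical, percent, log axis). The 88 loops called higher in MP with edgeR are red, the 17 lower are blue, the 64 not called are grey and the 1 not tested is black; the dashed line marks equal shares, and 130 loops lie above it.

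ALGSSNTNKVV took 0.110, 0.0953, 0.0914, 0.0827 and 0.110% of reads in Naive 1 to 5 and 4.75, 5.33, 6.59, 5.82 and 4.08% in MP 1 to 5. Every MP library was far above every Naive library, and the loop headed the set in MP. It had a log2 fold change of 5.76 (SE 0.37; adjusted p = 5.59e-05 in edgeR). The TRAJ52 loop with aspartate at position 3 followed. It took 0.0148, 0.0204, 0.0268, 0.0371 and 0.0196% of reads in Naive 1 to 5 and 4.90, 2.94, 4.83, 6.27 and 3.79% in MP 1 to 5. The subsets were again apart in every library, with a log2 fold change of 7.58 (SE 0.51; adjusted p = 5.59e-05 in edgeR).

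ALASSNTNKVV took 0.00214, 0.0115, 0.000696, 0.0226 and 0.00251% of reads in Naive 1 to 5 and 2.34, 2.61, 4.12, 3.52 and 2.35% in MP 1 to 5. The MP shares stayed within a factor of 2, whereas the Naive shares ran from a few reads in Naive 3 to the highest value in Naive 4. In 3 of the 5 Naive libraries this loop lay 1 substitution from another with at least 100 times its reads there, and whether its Naive reads are misread copies was not tested. It had a log2 fold change of 8.56 (SE 1.13; adjusted p = 0.000662 in edgeR). AASNTGNYKYV took 0.000285, 0.000730, 0.000522, 0.000724 and 0.00330% of reads in Naive 1 to 5 and 0.733, 0.862, 1.47, 1.58 and 1.14% in MP 1 to 5. This loop had the largest ratio of the set, 1039 times the mean Naive share. Its counts were only 2, 4, 3, 4 and 21 reads in Naive 1 to 5, so that the ratio rests on few reads, most of them in Naive 5. In 1 Naive library the loop lay 1 substitution from another with at least 100 times its reads. Whether its reads there are misread copies was not tested. The fit gave a log2 fold change of 9.99 (SE 0.94; adjusted p = 0.000381 in edgeR).

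Other loops were rare in every Naive library and common in every MP library. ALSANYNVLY took 0.00640, 0.00493, 0.00714, 0.00525 and 0.00283% of reads in Naive 1 to 5 and 1.80, 1.32, 1.25, 0.910 and 1.81% in MP 1 to 5. It had a log2 fold change of 8.06 (SE 0.55; adjusted p = 5.59e-05 in edgeR). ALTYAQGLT took 0.000996, 0.00347, 0.000696, 0.000905 and 0.00189% of reads in Naive 1 to 5 and 0.847, 0.953, 0.335, 0.507 and 0.886% in MP 1 to 5. It is a short TRAJ26 loop with 9 residues and a log2 fold change of 8.78 (SE 0.78; adjusted p = 0.000271 in edgeR). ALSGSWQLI took 0.000569, 0.00383, 0.000696, 0.00434 and 0.000786% of reads in Naive 1 to 5 and 0.643, 0.668, 0.364, 0.488 and 0.576% in MP 1 to 5. This TRAJ22 loop also did not overlap between the subsets and had a log2 fold change of 8.06 (SE 0.89; adjusted p = 0.000632 in edgeR). With ALASSNTNKVV and AASNTGNYKYV, these are the 5 largest ratios of MP to Naive.

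The remaining loops among the 10 most abundant in MP had smaller ratios than these 5. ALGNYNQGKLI took 0.0571, 0.0161, 0.0192, 0.0652 and 0.0726% of reads in Naive 1 to 5 and 2.35, 2.52, 2.60, 2.23 and 2.96% in MP 1 to 5. Naive 2 and Naive 3 were lower than the other Naive libraries, while the MP shares were close together. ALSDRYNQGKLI took 0.0696, 0.0407, 0.0615, 0.0751 and 0.0572% of reads in Naive 1 to 5 and 1.70, 1.40, 1.22, 1.30 and 1.18% in MP 1 to 5. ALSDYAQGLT had a mean share of 0.880 ± 0.141% in MP and 0.00333 ± 0.00139% in Naive, and AASRTTASLGKLQ 0.744 ± 0.189% and 0.0182 ± 0.00693% (SD, n = 5 each). All 4 were called higher in MP, with log2 fold changes of 5.78, 4.48, 8.04 and 5.35 and edgeR adjusted p between 6.72e-05 and 0.000522. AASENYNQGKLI took 0.375, 0.396, 0.471, 0.504 and 0.597% of reads in Naive 1 to 5 and 2.32, 1.28, 2.10, 2.26 and 2.70% in MP 1 to 5. This loop was the only one among the 10 most abundant members of both subsets. It had a log2 fold change of 2.19 (SE 0.37, adjusted p = 0.000811 in edgeR). This call was lost when no count filter was set beyond a listing in more than 1 library (edgeR adjusted p = 0.0559).

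The most abundant member in Naive cells was rare in MP. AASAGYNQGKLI took 0.762, 0.885, 0.942, 0.989 and 1.03% of reads in Naive 1 to 5 and 0.0104, 0.0358, 0.00105, 0.0346 and 0.00804% in MP 1 to 5. Every Naive share lay above every MP share. The fit gave a log2 fold change of -5.68 (SE 0.92; adjusted p = 0.000752 in edgeR). AVSADSNNRIF took 0.434, 0.382, 0.369, 0.279 and 0.270% of reads in Naive 1 to 5 and 0.00295, 0.0142, 0.00239, 0.00522 and 0.00702% in MP 1 to 5. Its subsets were likewise apart, with a log2 fold change of -5.76 (SE 0.69; adjusted p = 0.000662 in edgeR). ALSDSNTNKVV took 0.311, 0.190, 0.319, 0.325 and 0.356% of reads in Naive 1 to 5 and 0.00261, 0.00822, 0.0151, 0.0195 and 0.00380% in MP 1 to 5. The fit gave a log2 fold change of -4.93 (SE 0.72; adjusted p = 0.000662 in edgeR). AMRETSNTNKVV, with a TRAJ34 end, and AATNTGYQNFY, with a TRAJ49 end, completed the 5 smallest ratios of MP to Naive, with log2 fold changes of -4.68 and -4.05 (edgeR adjusted p = 0.00130 and 0.00581). AATNTGYQNFY had only 2, 37, 3, 7 and 3 reads in MP 1 to 5. It lay 1 substitution from a loop with at least 100 times its reads in 3 MP libraries, and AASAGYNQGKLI did in 2. Whether their MP reads are misread copies was not tested.

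Further loops common in Naive cells had a larger MP share than these. AVDTNAYKVI took 0.540, 0.596, 0.666, 0.441 and 0.684% of reads in Naive 1 to 5 and 0.0668, 0.0324, 0.0369, 0.0543 and 0.0320% in MP 1 to 5. It had a log2 fold change of -3.72 (SE 0.45; adjusted p = 0.000662 in edgeR). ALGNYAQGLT took 0.564, 0.631, 0.561, 0.455 and 0.503% of reads in Naive 1 to 5 and 0.0949, 0.05003, 0.111, 0.211 and 0.104% in MP 1 to 5. MP 4 came closest to the Naive libraries without reaching them, and the fit gave a log2 fold change of -2.25 (SE 0.47; adjusted p = 0.00234 in edgeR). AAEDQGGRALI had a mean of 0.319 ± 0.0655% in Naive and 0.0741 ± 0.0394% in MP (SD, n = 5 each), with a log2 fold change of -2.10 (SE 0.50; adjusted p = 0.00470 in edgeR). Without a count filter the calls of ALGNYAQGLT and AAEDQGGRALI were lost (edgeR adjusted p = 0.0727 and 0.108).

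For ALSSSNTNKVV and AISSNTNKVV the Naive shares were even and the MP shares were not. ALSSSNTNKVV took 0.532, 0.435, 0.512, 0.517 and 0.505% of reads in Naive 1 to 5 and 0.131, 0.000587, 0.378, 0.274 and 0.106% in MP 1 to 5. MP 2 held only 4 reads of it, and MP 3 came near the Naive level. The subsets did not overlap, yet the loop was not called, with a log2 fold change of -1.49 (SE 1.01; adjusted p = 0.234 in edgeR). AISSNTNKVV took 0.339, 0.356, 0.377, 0.322 and 0.336% of reads in Naive 1 to 5 and 0.106, 0.255, 0.232, 0.0320 and 0.202% in MP 1 to 5. Its log2 fold change of -1.06 (SE 0.56; adjusted p = 0.124 in edgeR) was not called either.

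Some loops were present at a sizeable share in both subsets. Of the 170, 25 had a mean share of at least 0.05% in both, and the 10 of these with the smallest ratio of means, called balanced here, are shown because both subsets held them at this level. The name describes the means: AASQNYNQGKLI lay above every Naive share in every MP library, and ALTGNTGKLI was 2.06 times higher in Naive by its mean.

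Balanced, TRAJ43: ASNNNNAPR

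Balanced, TRAJ31: AASMNSNNRIF

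Balanced, TRAJ23: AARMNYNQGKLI

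Balanced, TRAJ24: AASRATASLGKLQ

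Balanced, TRAJ40: AYTGNYKYV

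Balanced, TRAJ43: ALNNNNAPR

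Balanced by its mean only, TRAJ43: APNNNNAPR

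Balanced, TRAJ23: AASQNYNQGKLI

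Balanced, TRAJ49: APSNTGYQNFY

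Balanced, TRAJ37: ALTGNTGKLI

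These loops differ in their joining ends, and TRAJ43 and TRAJ23 each ended several of them. ASNNNNAPR took 0.0475, 0.0506, 0.0627, 0.0460 and 0.0550% of reads in Naive 1 to 5 and 0.0514, 0.0316, 0.0624, 0.0249 and 0.0848% in MP 1 to 5. The ranges overlapped, and the log2 fold change was -0.04 ± 0.51 (SE; edgeR adjusted p = 0.956). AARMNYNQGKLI took 0.397, 0.459, 0.472, 0.545 and 0.682% of reads in Naive 1 to 5 and 0.492, 0.466, 0.173, 0.383 and 0.725% in MP 1 to 5. It was the most abundant of the balanced loops, and MP 3 was its lowest library. Its log2 fold change was -0.19 ± 0.45 (SE; edgeR adjusted p = 0.739). AASMNSNNRIF took 0.0665, 0.0895, 0.0799, 0.0565 and 0.0632% of reads in Naive 1 to 5 and 0.0825, 0.0497, 0.107, 0.0797 and 0.0670% in MP 1 to 5. The log2 fold change was 0.12 ± 0.44 (SE; edgeR adjusted p = 0.835). None of the 10 was called, with log2 fold changes from -1.04 to 0.97 and standard errors of at least 0.38, so that they are not shown to be equal.

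APNNNNAPR took 0.0825, 0.0635, 0.0886, 0.0708 and 0.0866% of reads in Naive 1 to 5 and 0.00556, 0.233, 0.000299, 0.00905 and 0.00570% in MP 1 to 5. Its place among the balanced loops rested on MP 2. Without MP 2 its log2 fold change was -3.92 (edgeR adjusted p = 0.00428). The calls of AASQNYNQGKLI, APSNTGYQNFY and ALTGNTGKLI depended on the setting as well. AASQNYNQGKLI passed with a filter of at least 50 reads (edgeR adjusted p = 0.0361) and APSNTGYQNFY without MP 1 and MP 5 (0.0243). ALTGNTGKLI passed without Naive 2 (edgeR adjusted p = 0.0363), without MP 2 (0.0295) and in 3 other settings.

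By joining end, 168 of the 170 loops could be assigned, and 5 segments held 100 of them. TRAJ23 ended 28 members, TRAJ34 23, TRAJ49 20, TRAJ24 15 and TRAJ26 14. In percent, TRAJ23 ended 16.5% of the members, 6.19% of the CDR3s listed in all 5 MP and 1 to 4 Naive libraries and 11.2% of those listed in all 5 Naive and 1 to 4 MP libraries. The same shares were 11.8, 4.12 and 4.08% for TRAJ49 and 8.82, 4.64 and 1.42% for TRAJ24. They were 13.5, 10.8 and 5.08% for TRAJ34 and 8.24, 11.3 and 4.17% for TRAJ26. Among CDR3s in all 5 MP and no Naive library, TRAJ23, TRAJ34, TRAJ49, TRAJ24 and TRAJ26 ended 5.04, 15.1, 3.36, 2.52 and 11.8%. Among those in all 5 Naive and no MP library they ended 10.5, 4.76, 6.06, 1.53 and 5.00%. TRAJ34 and TRAJ26 were thus not at their highest share in the members. These shares describe peptides that partly share sequence and were not tested.

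The shared ends did not fix the side of the balance. TRAJ34 members together took 11.4 ± 2.33% of MP and 2.00 ± 0.175% of Naive reads, with 10 called higher, 4 lower and 9 not called. TRAJ23 members took 9.74 ± 1.00% and 3.07 ± 0.320%, with 12 higher, 3 lower, 12 not called and 1 not tested. TRAJ24 members took 2.62 ± 0.413% and 0.378 ± 0.0368%, with 11 higher, 1 lower and 3 not called. Each of these segments ended loops of opposite call. TRAJ26 members took 2.41 ± 0.522% of MP and 0.624 ± 0.0685% of Naive reads, with 7 higher, 2 lower and 5 not called. TRAJ49 members took 2.31 ± 0.664% and 0.606 ± 0.0317%, with 11 higher, 2 lower and 7 not called (SD, n = 5 throughout).

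**Figure D3:**
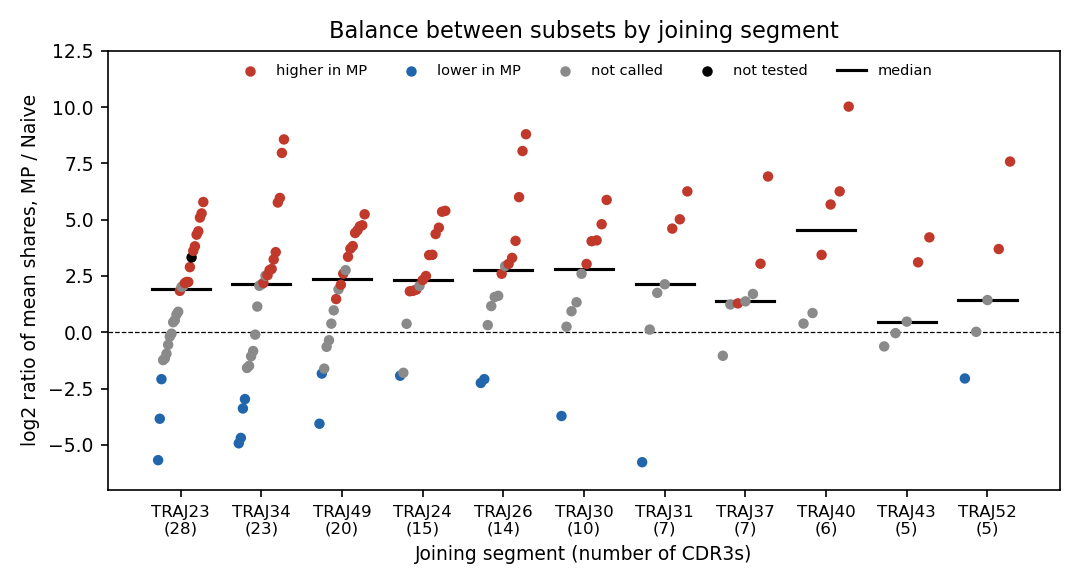
Log2 ratio of mean MP to mean Naive share (vertical) for the CDR3s of each joining segment with at least 5 members (horizontal, with their number), sorted within a segment. Points are CDR3s, coloured by the edgeR call, and black lines are medians; TRAJ34 runs from -4.93 to 8.56 and TRAJ23 from -5.68 to 5.78.

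Many members were near neighbours in sequence. Of the 170, 112 differed from another member by a single substitution, in 150 pairs and 24 families of linked loops. The largest families held 17 TRAJ23, 14 TRAJ24 and 8 TRAJ34 loops. All 150 substitutions lay at positions 2 to 5, with 47, 33, 49 and 21 pairs at these positions. Some of these positions fell within the matched joining end of a loop. ALGSSNTNKVV, with 3 residues ahead of its matched end, differs from ALGASNTNKVV at position 4. The TRAJ34 family of 8 is shown because it spans the widest range of balance among these families.

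TRAJ34 family, log2 fold change 8.56: ALASSNTNKVV

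TRAJ34 family, log2 fold change 5.76: ALGSSNTNKVV

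TRAJ34 family, log2 fold change 2.51: ASASSNTNKVV

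TRAJ34 family, log2 fold change 2.19: ALGASNTNKVV

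TRAJ34 family, log2 fold change 2.06: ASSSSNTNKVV

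TRAJ34 family, log2 fold change -0.10: APSSSNTNKVV

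TRAJ34 family, log2 fold change -1.49: ALSSSNTNKVV

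TRAJ34 family, log2 fold change -4.93: ALSDSNTNKVV

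ALGSSNTNKVV and ALASSNTNKVV differ by G3A, and each differs from ALSSSNTNKVV at position 3, by G3S and A3S. In MP their mean shares were 5.31, 2.99 and 0.178%, and in Naive 0.0980, 0.00789 and 0.5003%. ALSSSNTNKVV was the highest of the 3 in Naive and the lowest in MP. The log2 fold change of ALSSSNTNKVV, -1.49, was not called (edgeR adjusted p = 0.234). In the same family ASASSNTNKVV, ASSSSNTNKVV and APSSSNTNKVV were not called either (edgeR adjusted p = 0.0859, 0.0936 and 0.941). ASASSNTNKVV took 0.113% of MP 2, against 0.00487 to 0.0158% of the other MP libraries.

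By the median, neighbours in sequence lay about as far apart in balance as all pairs of members of equal length, which include them. The median absolute difference of log2 ratio was 2.865 over the 150 pairs and 2.92 over all 2826 pairs of members of equal length. In 52 pairs the mean shares lay on opposite sides, and 12 pairs held 1 loop called higher and 1 called lower. Examples are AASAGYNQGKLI with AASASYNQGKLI (G5S), at 0.922 and 0.0368% of Naive reads and 0.0180 and 0.450% of MP reads, and AFGNYAQGLT with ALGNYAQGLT (F2L), at 0.00395 and 0.543% of Naive and 0.253 and 0.114% of MP reads.

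In 11 of these 12 pairs the loops were at least 100 times apart in some library. For the other pair, AASLATASLGKLQ and AASLSTASLGKLQ (A5S), no library reached that ratio. Of the 170, 54 lay 1 substitution from another loop with at least 100 times their reads in some Naive or MP library, 26 of them in Naive and 41 in MP libraries. Without these, 116 members remained, of which 71 were called higher and 11 lower. Among them 55 pairs differed by 1 substitution, with 6 on opposite sides by mean share and 0 with opposite calls. Leaving out loops with a far more abundant neighbour also leaves out the pairs that differ most, so this 0 follows largely from that choice and nothing is read from it. Whether such loops hold reading errors was not tested.

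In length the members lay between the other recurrent loops of both subsets. Their mean was 10.9 ± 1.38 residues (SD over loops), against 9.97 for the 194 CDR3s listed in all 5 MP and 1 to 4 Naive libraries and 10.1 for the 119 listed in all 5 MP and no Naive library. It was 11.2 for the 2108 listed in all 5 Naive and 1 to 4 MP libraries and 11.6 for the 2162 listed in all 5 Naive and no MP library. Loops of at most 9 residues made up 19.4% of the members, 43.8 and 44.5% of the MP classes and 10.3 and 7.77% of the Naive classes. Ahead of the joining end stood 3.48 residues on average in members, 3.45 and 4.06 in the MP classes and 3.76 and 4.24 in the Naive classes. A full germline joining end was kept by 45.9% of the members, 23.7 and 14.3% of the MP classes and 50.1 and 42.0% of the Naive classes.

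**Figure D4:**
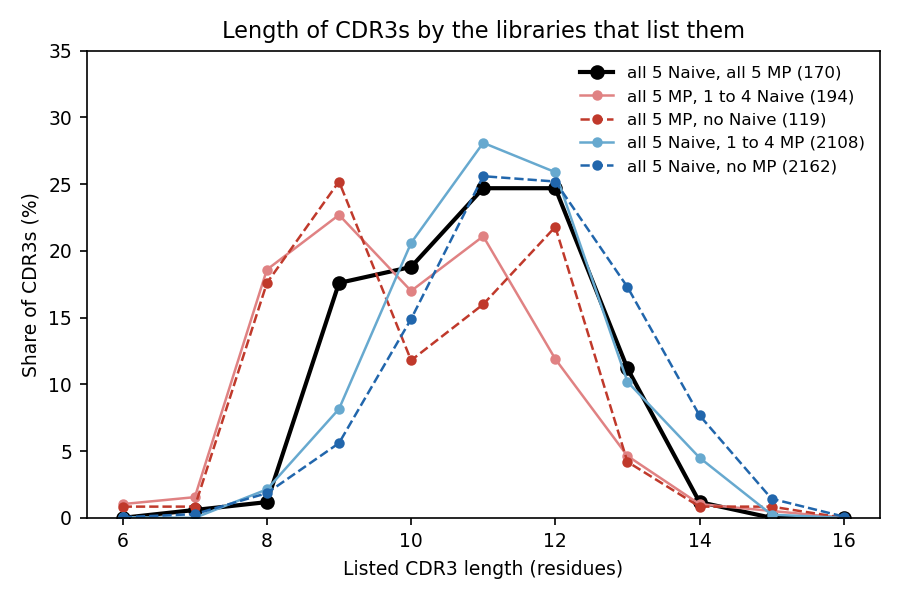
Share of CDR3s (vertical, percent) at each listed length in residues (horizontal) for the 170 shared CDR3s in black and 4 classes of CDR3s listed in all 5 libraries of 1 subset. The members peak at 11 and 12 residues with 24.7% each, and the red MP classes peak at 9 residues.

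The first residues differed too. Loops that began with 2 alanines made up 36.5% of members, and those that began with alanine and leucine 27.1%. In the MP classes the latter made up 44.8 and 47.1%, and in the Naive classes 31.2 and 28.4%. A cysteine was found in 0 of the 170 members. It was found in 2 of 194, 3 of 119, 12 of 2108 and 22 of 2162 CDR3s of the other classes, shares of at most 2.52%. Net charge averaged 0.571 in members, 0.613 and 0.630 in the MP classes and 0.576 and 0.541 in the Naive classes. Within the members, loops called higher and lower had mean lengths of 10.85 and 11.0 residues and mean charges of 0.557 and 0.353. All of these are descriptions over loops that share families.

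Invariant T cells were looked for by their joining ends. No member carried the TRAJ18 end of invariant natural killer T cells, which 613 CDR3s of the series carried. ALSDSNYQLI was the only member with the TRAJ33 end of mucosal-associated invariant T cells, an end carried by 872 CDR3s, most of which need not come from such cells. It took 0.00392 ± 0.00155% of Naive and 0.0165 ± 0.0103% of MP reads (SD, n = 5 each).

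Tumour reads were not used to choose the members, while Naive and MP reads were. In tumours the members were a minor part of the reads. Their summed share was 0.408, 3.80, 0.925, 0.791 and 0.556% in Tumours 1 to 5, a mean of 1.295 ± 1.41% (SD, n = 5). Tumour 2 was high and the others were all under 1%. Without Tumour 2 the mean was 0.670%. The tumours listed 16, 71, 11, 29 and 9 of the 170. Tumour 2 also had the longest list, with 2657 distinct CDR3s.

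Of the 170, 92 were listed in at least 1 tumour, 59 of them in a single tumour, 25 in 2, 5 in 3 and 3 in 4. None was in all 5. In percent, 4.71% of the members were in 3 or more tumours, against 3.09% of the CDR3s in all 5 MP and 1 to 4 Naive libraries, 0% of those in all 5 MP and no Naive library, 1.09% of those in all 5 Naive and 1 to 4 MP libraries and 0.231% of those in all 5 Naive and no MP library. These classes had 2, 0, 6 and 3 CDR3s in all 5 tumours. Without Tumour 2 the number listed in at least 1 tumour fell to 51. A tumour listed 54.1% of the members, 41.2% of the CDR3s in all 5 MP and 1 to 4 Naive libraries and 17.6% of those in all 5 Naive and 1 to 4 MP libraries. Abundance differs between these classes. Among loops with a mean MP share of at least 0.1%, a tumour listed 63.9% of 61 members and 71.4% of the 56 CDR3s in 1 to 4 Naive libraries. At a mean Naive share of at least 0.1%, it was 60.0% of 20 members and 31.7% of the 101 CDR3s in 1 to 4 MP libraries. From 0.01 to 0.1% of MP reads it was 51.8% of 83 members and 39.5% of 86, and under 0.01% it was 38.5% of 26 and 11.5% of 52. From 0.01 to 0.1% of Naive reads it was 56.9% of 72 members and 23.0% of 517, and under 0.01% it was 50% of 78 and 14.7% of 1490. The members' share was the higher one in all 3 Naive bands and in both lower MP bands, and the lower one in the top MP band. Bands hold CDR3s listed in all 5 libraries of the banded subset, include Tumour 2 and leave the other subset's share unmatched. The median mean MP share was 0.0523% in members and 0.000906% in the class with 1 to 4 MP libraries. The median mean Naive share was 0.0117% in members and 0.000371% in the class with 1 to 4 Naive libraries. No test was made, since loops are not replicates.

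**Figure D5:**
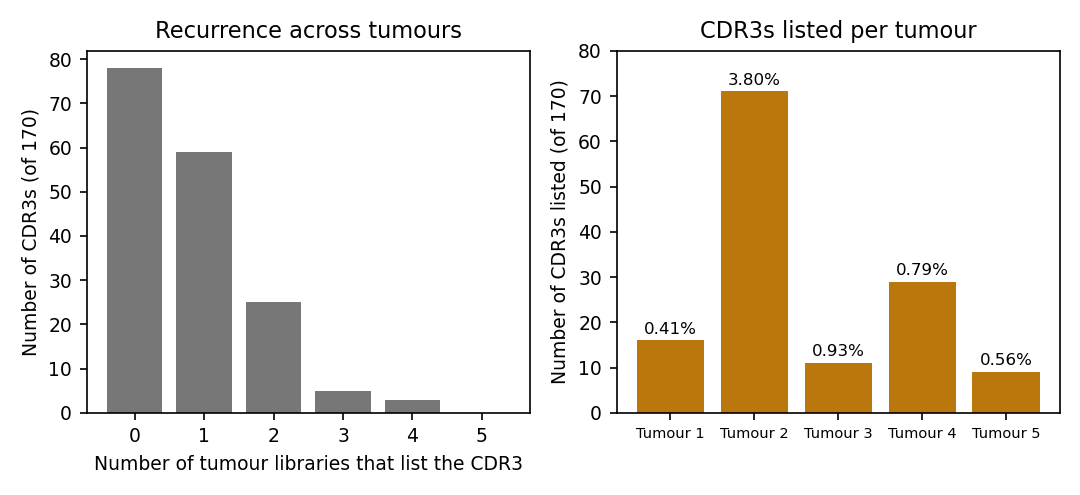
Left, number of the 170 CDR3s (vertical) by the number of tumour libraries that list them (horizontal); 78 were in none and 0 in all 5. Right, number of the 170 CDR3s listed in each tumour, with their summed share of its reads in percent above the bar; Tumour 2 listed 71.

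The leading member differed in every tumour, and these loops are named after their values were seen. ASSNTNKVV, with a TRAJ34 end, took 1.47% of Tumour 2, or 38.7% of the members' reads there, and was not listed in the other tumours. In spleen and lymph nodes it took 0.00722 ± 0.00267% of Naive and 0.0506 ± 0.0416% of MP reads (SD, n = 5 each). It ranked 10 by abundance in Tumour 2, the highest rank of a member in any tumour. ALGASNTNKVV came next in that tumour with 0.675%. The leading members elsewhere were AITGYQNFY in Tumour 1 at 0.0990%, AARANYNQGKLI in Tumour 3 at 0.321%, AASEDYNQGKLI in Tumour 4 at 0.135% and ALPNTGKLT in Tumour 5 at 0.141%. The loops at MP ranks 1 to 3 led no tumour. The TRAJ52 loop with aspartate at position 3, at MP rank 2, was listed in 3 tumours, at 0.125% of Tumour 2, 0.0112% of Tumour 3 and 0.0452% of Tumour 4. ALGSSNTNKVV and ALASSNTNKVV were listed in no tumour, where a count of 2 reads would be at most 0.000319% of a library.

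The loops listed in 4 tumours were AASEAGYQNFY and ALSDTGYQNFY, both with a TRAJ49 end, and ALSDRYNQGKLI. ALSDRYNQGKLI took 0.00429, 0.0103, 0.0719, 0 and 0.0756% of reads in Tumours 1 to 5. AASEAGYQNFY took 0, 0.0208, 0.0198, 0.00391 and 0.0734% of reads in Tumours 1 to 5. ALSDTGYQNFY took 0.0434, 0.0383, 0, 0.00367 and 0.0724% of reads in Tumours 1 to 5. Each was missing from the list of a different tumour, and the shares in the other tumours were uneven. ALSDTGYQNFY was higher in Tumour than in Naive libraries, where its mean was 0.00262 ± 0.00117% (SD, n = 5), with a log2 fold change of 3.58 (SE 1.36; adjusted p = 0.0285 in edgeR). Its mean in MP was 0.0706 ± 0.0274% (SD, n = 5), and it was not called between Tumour and MP, with a log2 fold change of -1.16 (SE 1.59; adjusted p = 0.520 in edgeR).

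ALSDTGYQNFY was the 1 member of 155 tested that was higher in Tumour than in Naive, beside 3.38% of all 4671 CDR3s tested. The call was lost with TMM scaling and when any 1 Naive library or Tumour 5 was left out. Of the 155, 96 were lower in Tumour (61.9%), beside 86.7% of all CDR3s tested. Against MP, 0 of 162 members were higher in Tumour with edgeR, beside 7.68% of all 1666 CDR3s tested. At an unadjusted p under 0.05 the number was also 0, and so it was with DESeq2. Of the 162, 106 were lower in Tumour than in MP (65.4%), beside 66% of all CDR3s tested, a share near the background. Without MP 1 and MP 5 the number was 67 of 144 (46.5%), beside 35% of the 642 CDR3s then tested, so that the nearness to the background depends on these libraries. Both comparisons share the Tumour libraries. The Naive and MP reads in them were used to choose the members. Other CDR3s could pass the count filter through Tumour libraries alone. Nothing is therefore read from the difference between the members' percentages and those of all CDR3s tested.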

How the data were processed

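The members and lists were chosen with earlier results of these data known. Per the labels' protocols, RNA of sorted cells was amplified by iRepertoire with arm-PCR, a multiplex RT-PCR, and the quoted company text names a Roche 454 platform (aligner and CDR3 caller: not given in the sources used here). Deposited values are the authors' deposited counts of reads per CDR3 peptide, 1 list per library, without normalization. The lowest listed count was 2. No molecular identifiers are stated, so PCR reads need not be separate molecules.

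A share is the percent of a library's total reads. Calls used edgeR 4.0.16 (limma 3.58.1, R 4.3.3), by a robust quasi-likelihood test on every CDR3 that reached 10 reads in 3 or more libraries, total reads as library size, each pair of groups fitted alone, and Benjamini-Hochberg adjustment over all CDR3s tested, with a threshold of 0.05. Alternatives were TMM, DESeq2 1.42.0, other filters, thinning, a replicate block, and libraries left out; leaving out MP 1 and MP 5 and the most abundant member were added after values were seen. The setting without a count filter still required a listing in more than 1 of the libraries compared. The p-values measure the spread between these libraries. The SE of an edgeR log2 fold change was derived from the test, as its absolute value divided by the square root of the quasi-likelihood F statistic. Naive and MP libraries with equal numbers were treated as unpaired, since the labels do not say which share a mouse. Their correlations of deviations over 5954 CDR3s were 0.0132 to 0.0468, which cannot show that equal numbers are different mice.

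Joining ends (43, at least 4 residues matched) were written from general knowledge and not checked against a reference sequence. Named members were the 10 of highest mean share per subset, the 10 most balanced with at least 0.05% in both, the 5 largest and 5 smallest ratios, and any in all 5 tumours or higher in Tumour than in MP. Joining ends were named for the 5 largest groups. Other members, families and pairs were chosen after their values were seen. Python 3.11.15, numpy 2.4.6, scipy 1.17.1, pandas 2.3.3 and matplotlib 3.10.9 were used.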

Additional observations from a re-analysis of the deposited data

Results flagged for a closer look

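A library far from the other 4 of its group was looked for in 68 groups of 5 libraries, the shares of the named members and the summed shares. It was found in 6, and chance alone gives about 1 in 20 groups. ALSSSNTNKVV took 0.4355% of reads in Naive 2, against 0.505 to 0.532% in the other Naive libraries. ALSDSNTNKVV was also lowest in Naive 2, at 0.1895% against 0.311 to 0.356%. AASNTGNYKYV took 0.00330% of Naive 5, against 0.000285 to 0.000730% in the other Naive libraries. In MP 2, APNNNNAPR took 0.233% of reads, against 0.000299 to 0.00905% in the other MP libraries, and AATNTGYQNFY took 0.00543%, against 0.000227 to 0.00122%. The summed share of the 170 loops was 3.80% in Tumour 2 and 0.408 to 0.925% in the other tumours. The causes were not tested.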

How the results depend on the processing

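In the comparison of MP with Naive, the 88 members called higher became 40 with a replicate block. They became 64 of 170 with no filter, beside 2289 of all 28731 CDR3s tested. When 1 library was left out they became between 80 and 90. The 17 called lower became 10 with no filter and 7 with a replicate block, and all of these were among the 17. Libraries of the same number had correlations of deviations of 0.0132 to 0.0468, and 2 of 5 numbers correlated best with their own. Correlations this low cannot show whether equal numbers mark 1 mouse, so the counts of both fits are given. Against MP, the 106 members lower in Tumour became 67 without MP 1 and MP 5, where 144 members were tested and 35% of all CDR3s tested were lower. Against Naive, the 1 member higher in Tumour became 0 with TMM, 0 with a replicate block and 0 to 2 with 1 library left out, and the 96 lower became 59 with at least 50 reads required, where 98 were tested. With at least 10 reads in each library the rule gave 93 members, with 7.04% of Naive and 31.6% of MP reads, and with 4 of 5 libraries of each subset 442. It gave 173 to 248 with 1 library left out, the most without MP 3, and 160.4 on average after thinning. Without the most abundant member the summed share was 8.38% in Naive and 36.2% in MP. With 1 tumour left out, 51 to 90 members were listed in at least 1 tumour and 0 to 1 in all remaining. Of 543 values for the 32 named members under other settings, 529 stayed on the same side of the threshold in the same direction, 8 passed it anew and 6 fell short, and none changed direction while called. The cause of these changes was not tested. Depth limits loops near 2 reads, of which 27 members are examples.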

Other observations

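The calls of some smaller groups, beside 52.1% of all members called higher and 12.6% of all CDR3s tested, were as follows. All 4 loops with a TRAJ22 end were called higher in MP, with 0.882 ± 0.184% of MP and 0.0116 ± 0.00428% of Naive reads (SD, n = 5 each). Of 6 loops with a TRAJ40 end, 4 were called higher and 0 lower, with 1.97 ± 0.396% of MP and 0.112 ± 0.0238% of Naive reads. Both TRAJ42 loops were not called, with 0.0396 ± 0.0142% of MP and 0.0399 ± 0.00761% of Naive reads. Both loops without an assigned end were called higher in MP. They were ALPNTGKLT, at 0.416 ± 0.119% of MP and 0.00418 ± 0.00414% of Naive reads, and ALTGKLT, the shortest member with 7 residues, at 0.0200% and 0.00128%. These groups were named after their values were seen.

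Most of the abundant loops listed in all 5 MP libraries were on some Naive list. Of 122 such CDR3s with a mean MP share of at least 0.1%, 61 were listed in all 5 Naive libraries, 56 in 1 to 4 and 5 in none. CDR3s missing from the list of an MP library were not counted here. Among the 61, the mean Naive share ranged from 0.000963 to 4.76 times the mean MP share.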
